A study of Mus musculus with 2 samples.

Results

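Trp53, the gene of the transcription factor p53, and 9 genes that p53 is known to activate (Mdm2, Cdkn1a, Ccng1, Gadd45a, Sesn1, Bax, Trp53inp1, Phlda3 and Zmat3) were compared between epiblast stem cells derived from mouse embryonic stem (ES) cells in 2 ways. Probes were taken by gene symbol alone: every probe for a mouse transcript that carries 1 of these 10 symbols on both arrays was taken, which gave 13 probes of 55681 on the array and 10 genes of 34650. The 10 genes themselves were chosen with earlier results of these data known. Both cultures came from E14Tg2A, an ES cell line of strain 129/Ola, and both received 20 ng/mL Activin A and 12 ng/mL FGF2 in chemically defined medium. EpiSC were made by giving these factors to ES cells directly. ELA-EpiSC were made by giving them to Epiblast-Like Aggregates (ELA), the floating clusters that ES cells form once LIF and serum are withdrawn. Each group was 1 array with RNA pooled from 3 experiments on 1 cell line, so the comparison had no replicate and no p-value can be given. Titles and descriptions name total RNA of these cultures and were followed here, although the source fields conflict with them for both samples: each gives the stage 0DIV, at which the study has undifferentiated ES cells, and that of EpiSC reads as RNA bound to Argonaute.

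p53 is a transcription factor that binds paired copies of a short DNA motif and is held at low protein levels by Mdm2, a ubiquitin ligase whose own gene p53 activates. When DNA damage or another stress frees p53 from Mdm2, its targets slow the cell cycle, repair DNA, restrain growth signalling or promote apoptosis. Mouse ES cells are known for abundant p53 and for lacking a firm arrest in G1 after damage, and p53 is known to lower Nanog when these cells differentiate. RNA levels of Trp53 and its targets do not measure p53 protein or its activity.

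In ELA-EpiSC the RNA of Gadd45a was 4.24-fold higher than in EpiSC, that of Mdm2 1.81-fold higher and that of Trp53 1.37-fold higher, whereas Sesn1 was 1.67-fold lower. The other 6 genes, Cdkn1a among them, differed by 1.23-fold or less. On the log2 scale, differences (ELA-EpiSC minus EpiSC, brightest probe of each gene) ran from -0.74 to 2.08, with a median of 0.19 against 0.0014 for all 16649 genes counted. Of the 10 genes, 7 were higher in ELA-EpiSC, where 50.2% of all genes were. Only Gadd45a was higher in ELA-EpiSC by at least 1 (log2), a size that 4.54% of all genes reached, and 0 of the 10 were higher in EpiSC by that much (4.46% of all genes). At 0.5, Gadd45a and Mdm2 were higher in ELA-EpiSC (13.6% of all genes) and Sesn1 was higher in EpiSC (13.7%). The median absolute difference was 0.27 over the 10 genes and 0.28 over all genes. The counts of 1 or 2 of 10 lie near these shares and are not read as a property of the group.

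**Figure D1:**
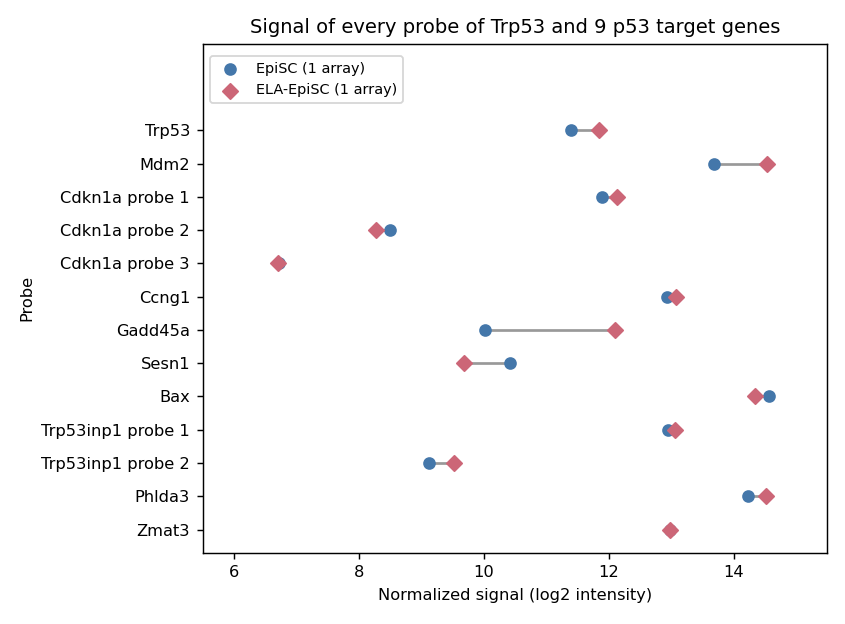
Normalized signal (log2 intensity, x axis) of each of the 13 probes (y axis) in EpiSC (circles) and ELA-EpiSC (diamonds), 1 array per group; a line joins the 2 values of a probe. The widest line is that of Gadd45a, from 10.02 to 12.10, and brightness is to be compared along a row only, since probes differ in how strongly they bind.

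The 13 probes were well above background on both arrays and 0 of their spots were saturated. Over all probes, 65.8% were well above background in EpiSC and 65.0% in ELA-EpiSC, with a median spot signal of 71.7 and 79.1 intensity units. Both arrays were read on 1 slide in 1 scan. The only measure of error was the spread of replicate spots: over 399 probes printed 10 times, the difference between the arrays had an SD of 0.098 (log2). This SD holds spot noise alone, without that of labelling or culture, and the number of arrays limits every comparison. Apart from that of Trp53 and 1 of Cdkn1a, each of the 13 probes was a single spot. The 10 epiblast markers examined (Pou5f1, Nanog, Fgf5 and Otx2 among them) were all well above background on both arrays. Of the 10, 8 read higher in ELA-EpiSC (median difference 0.21, from -0.053 to 0.75 under other processing), where 50.2% of all genes were higher. That count was 5 under both scalings to the 75th percentile. It includes Otx2 at 0.0049, whose sign changed under 6 of the 15 alternatives. The summed normalized intensity of the 10 markers was nevertheless lower in ELA-EpiSC (331998 in EpiSC and 312301 in ELA-EpiSC). The brightest probe, that of Dnmt3b, was at -0.84, while the dimmest, that of Zic2, was at 1.68. Sums below likewise lean on the brightest probes. The 10 visceral endoderm markers summed to 52849 in EpiSC, where all 10 were well above background, and to 32342 in ELA-EpiSC, where Ttr, Apoa1 and Apoa4 were not. Of these, 7 passed the minimum signal, with a median difference of -0.93. The brightest, Foxa2, was at -0.44 and the dimmest, Afp, at 0.21, and the sign of each changed under 1 other scaling. The 8 neural markers summed to 15130.5 and 62264, with 6 and 7 above background (Pax6 on neither array, Dcx only in ELA-EpiSC), and the brightest, Nefl, was at 2.18. Of the 8, 5 passed the minimum signal, with a median difference of 0.72 (0.31 to 2.11 under other processing). The 8 fibroblast markers summed to 3791 and 6402, with 6 and 7 above background (Lum on neither array, Postn only in ELA-EpiSC). The brightest, Col1a2, was at 0.080 (-0.033 with the processed signal). Of the 8, 4 passed the minimum signal, with a median difference of 0.92 (0.066 to 1.93 under other processing). Besides Col1a2 these were Thy1 at 0.053, Pdgfra at 1.77 and Col1a1 at 3.72. Col1a1 read 7.07 in EpiSC and 10.79 in ELA-EpiSC, and so changed the sum more than Col1a2 did. The part of these cell types in the differences of the p53 genes was not tested. In RNA of whole cultures, fewer cells of a type and less RNA per cell cannot be told apart.

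Trp53 itself was measured by 1 probe printed 2 times, at chr11:69404204-69404263 on the plus strand (mm9, the assembly of all probe positions given). Its last 30 bases are shown because this probe reads the RNA of the factor that gives the group its name.
Trp53: aggagtctggagacagcagggctcactcca
The EpiSC spots read 11.36 and 11.42 and the ELA-EpiSC spots 11.81 and 11.87 (log2). The spots of the 2 arrays did not overlap, and the mean was 0.45 higher in ELA-EpiSC (11.39 and 11.84), with an SD of 0.097 between the 2 spot pairs. Of all genes, 68.8% had a smaller absolute difference. As scanned, before normalization, the mean signal was 2406 in EpiSC and 4017 in ELA-EpiSC.

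Mdm2, which marks p53 for degradation and is itself a p53 target, was read by 1 probe on the minus strand at chr10:117126010-117126069. A stretch of 30 bases of it is shown because Mdm2 had the second largest difference of the group. Capitals mark AATAAA, the letters of the polyadenylation signal, found as letters only. These letters, read on the probe strand, occur in 5 of the 13 probes and in 10.1% of all probes on the array.
Mdm2: gtcccgatttacAATAAAgtaccttgtgtg
Its level was 13.68 in EpiSC and 14.54 in ELA-EpiSC. The difference of 0.85 was about 9.08 times the spot SD of probes at that level. Of all genes, 88.1% had a smaller absolute difference. The scanned signal was 12195 in EpiSC and 24811 in ELA-EpiSC. Trp53 and its inhibitor were thus both higher in ELA-EpiSC.

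Cdkn1a encodes p21, the inhibitor of cyclin-dependent kinases through which p53 halts the cell cycle, and it was the best measured of the 10 genes. The array carried 3 probes for it, which lie on the plus strand of chromosome 17. The brightest, probe 1, is at chr17:29237377-29237436 and was printed 10 times. Probe 2 lies at chr17:29227986-29228045. Probe 3 lies at chr17:29235299-29235358, 7313 bases after probe 2 and 2078 bases before probe 1. The last 30 bases of each are given because the 3 probes did not differ between the cultures in the same way. Capitals mark AATAAA in probe 2, found as letters only. On the array the 3 probes are annotated under different transcript names. Which exons or transcript ends the probes fall in, and whether each reads 1 transcript alone, was not analysed here.
Cdkn1a probe 1: gctgatcctttctcagtgttgaataccgtg
Cdkn1a probe 2: acgtcccactttgccagcagAATAAAaggt
Cdkn1a probe 3: tcttgtgtttcagccacaggcaccatgtcc
The 10 spots of probe 1 ran from 11.77 over a median of 11.87 to 12.07 in EpiSC, and from 11.88 over a median of 12.16 to 12.36 in ELA-EpiSC. The ranges of the spots overlapped, but spots at the same place on the slide layout shared their deviation, and in 10 of 10 such pairs the ELA-EpiSC spot was brighter. The difference was 0.24 ± 0.091 (SD over 10 spot pairs), with pairs from 0.073 to 0.34. Probe 2 read 8.50 in EpiSC and 8.27 in ELA-EpiSC, which is -0.24 as a difference, and its scanned signal was 301 and 300 units. Probe 3, close to background, read 6.72 and 6.70. Probes 1 and 2 thus differed in opposite directions by a like amount, each a little over 2 spot SDs. Taken as the mean of its 3 probes, Cdkn1a differed by -0.0025, and under scaling to the spike-in RNA all 3 were higher in ELA-EpiSC, by 0.78, 0.30 and 0.52. Of all genes, 45.0% had a smaller absolute difference than probe 1.

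**Figure D2:**
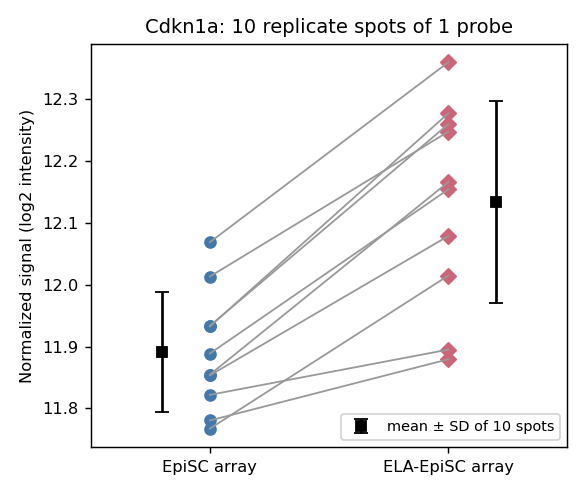
Normalized signal (log2 intensity, y axis, which does not start at 0) of the 10 spots of Cdkn1a probe 1 on the EpiSC and the ELA-EpiSC array (x axis); lines join spots at the same layout position, and squares with bars give the mean ± SD of the 10 spots. All 10 lines go up from EpiSC to ELA-EpiSC, although the ranges of the spots (11.77 to 12.07 and 11.88 to 12.36) overlap.

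Ccng1, an atypical cyclin that p53 induces, read 12.92 in EpiSC and 13.07 in ELA-EpiSC on its 1 probe (chr11:40562427-40562486, minus strand). The difference of 0.14 was about 1.49 spot SDs, and 28.7% of all genes had a smaller one.

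Gadd45a, a small protein that answers DNA damage and other stresses with growth arrest and also takes part in DNA demethylation, had the widest difference of the group. Its probe lies on the minus strand at chr6:66985376-66985435 and ends with these 30 bases.
Gadd45a: aagaaaactgctaatttaggatggccaggt
The EpiSC level was 10.02 and the ELA-EpiSC level 12.10. The difference of 2.08 was about 21.6 spot SDs, and 98.3% of all genes had a smaller absolute difference. The scanned signal was 903 units in EpiSC and 4819 in ELA-EpiSC, on a local background of 25 and 24 units. Gadd45a was the only member past 1, and it stayed between 2.05 and 2.62 under the 15 other ways of processing described in the closing section.

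Sesn1, a sestrin that restrains mTORC1 signalling and limits oxidative damage, was the member most clearly lower in ELA-EpiSC. Its probe lies on the plus strand at chr10:41628012-41628071 and, like that of Mdm2, holds AATAAA (capitals), found as letters only.
Sesn1: agctccttaaagAATAAAgctggaaaatat
The level was 10.42 in EpiSC and 9.68 in ELA-EpiSC. The difference of -0.74 was about 7.46 spot SDs, and 84.8% of all genes had a smaller absolute difference. The scanned signal was 1198 and 872 units. The direction held under every scaling tried, with a difference of -0.20 under scaling to the spike-in RNA.

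Among the members tied to cell death and survival, Bax, which opens pores in the mitochondrial outer membrane, read 14.57 in EpiSC and 14.34 in ELA-EpiSC (chr7:52717122-52717181, minus strand). Its difference was -0.23 and turned to 0.31 under scaling to the spike-in RNA. Phlda3, which blocks the recruitment of the survival kinase Akt to membranes, read 14.23 and 14.52 (chr1:137665642-137665701, plus strand), a difference of 0.30. Bax and Phlda3, 2 targets known to act against survival, thus differed in opposite directions by about 2.26 and 3.09 spot SDs.

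Trp53inp1, a stress-induced nuclear protein that takes part in autophagy and cell death, had 2 probes on the plus strand of chromosome 4. The brighter one (chr4:11101174-11101233) read 12.94 in EpiSC and 13.07 in ELA-EpiSC and so differed by 0.12, which turned to -0.016 with the scanner's processed signal scaled to the 75th percentile. The dimmer one (chr4:11092530-11092589) read 9.13 and 9.52, a difference of 0.39. Both probes were thus brighter in ELA-EpiSC, by unequal amounts. Zmat3, a zinc finger protein that binds RNA, read 12.98 on both arrays (chr3:32233831-32233890, minus strand). Its difference of -0.0016 was the smallest of the group, within the spot SD, and its sign changed under 5 of the 15 alternatives.

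**Figure D3:**
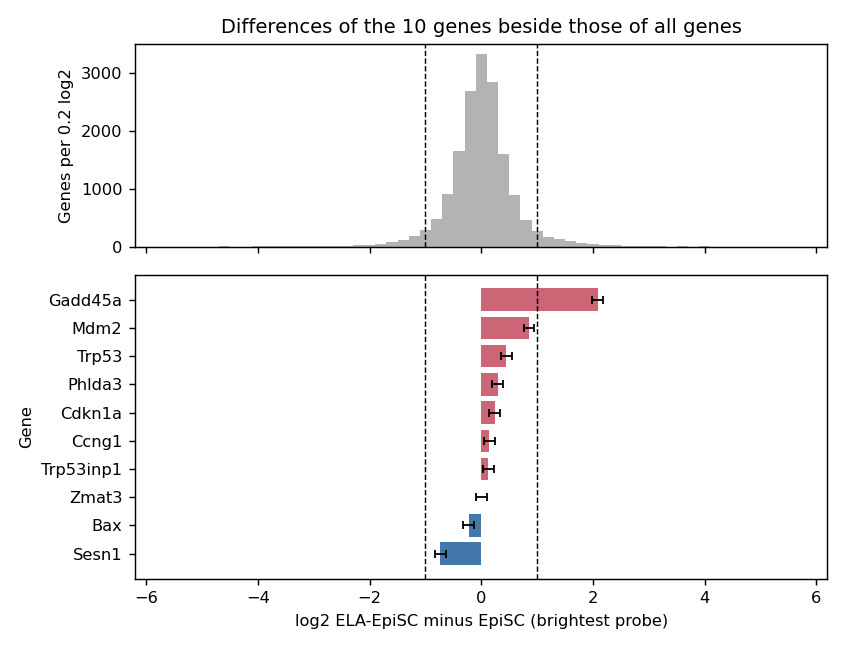
Upper panel, histogram of the log2 difference ELA-EpiSC minus EpiSC (x axis) over the 16649 genes counted, in bins of 0.2 (y axis, genes per bin); lower panel, the same difference for the 10 genes (bars, from 0) with the SD of replicate spots at that signal level (error bars, spot noise only). Gadd45a (2.08) is the only bar that passes the dashed lines at 1 and -1; Bax (-0.23) turns to 0.31, Zmat3 turns to 0.53 and Sesn1 (-0.74) becomes -0.20 under scaling to the spike-in RNA.

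How the 2 arrays are put on 1 scale bears on the small differences. Quantile normalization, used above, sets both arrays to the same distribution. Setting the spike-in RNA equal instead moved the median of all genes to 0.54 and the share of genes past 1 that were higher in ELA-EpiSC from 50.5% to 89.0%, and scaling by the median moved them to 0.15 and 68.3%. The order of the 10 genes was the same under spike-in scaling, which adds 0.54 to each difference, and under median scaling Cdkn1a (0.46) came above Phlda3 (0.38). Under spike-in scaling Mdm2 stood at 1.39, Trp53 at 0.99 and Zmat3 at 0.53, close to the median of all genes. The signs of Gadd45a, Mdm2, Trp53, Phlda3, Ccng1 and Sesn1 were the same under all 15 alternatives. Those of Bax, Cdkn1a, Trp53inp1 and Zmat3 were not.

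**Figure D4:**
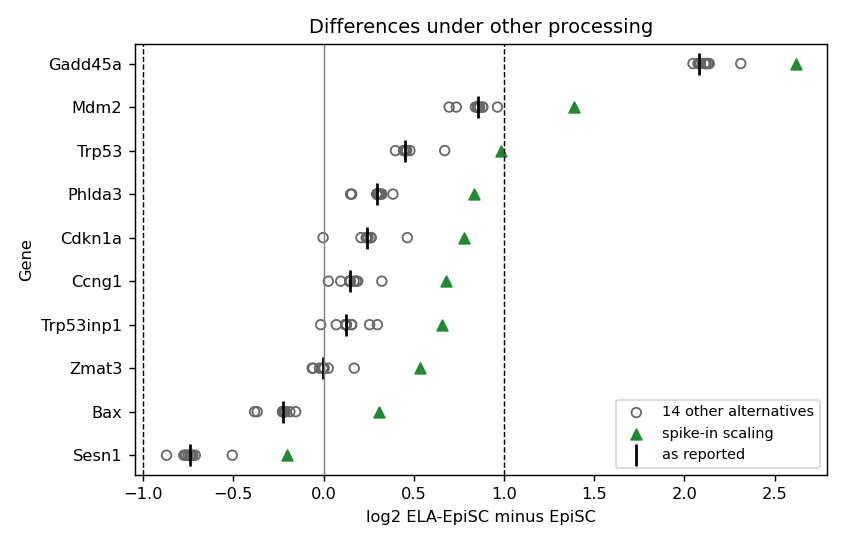
Log2 difference ELA-EpiSC minus EpiSC (x axis) of each of the 10 genes (y axis) as reported (vertical tick), under scaling to the spike-in RNA (triangle) and under the 14 other alternatives (open circles); dashed lines mark 1 and -1. Gadd45a stays between 2.05 and 2.62 and Sesn1 stays below 0, whereas Bax turns from -0.23 to 0.31 and Zmat3 from -0.0016 to 0.53 under spike-in scaling.

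Further genes that p53 is known to activate were taken from 3 lists, 40 genes on the array of which 34 passed the minimum signal. In ELA-EpiSC 21 of them were higher and 13 lower, with a median of 0.12, where 50.2% of all genes were higher. By at least 1, 9 were higher and 0 lower (4.54% and 4.46% of all genes). These lists were chosen with results of these data known, so the counts are a description of the genes named here and of no wider group.

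Of 13 targets tied to arrest and repair, 7 were higher and 6 lower (median 0.062). Past 1 were Sfn, the 14-3-3 protein that holds cells in G2 (10.47 in EpiSC, 12.22 in ELA-EpiSC, difference 1.76), the sestrin Sesn2 (13.13 and 14.28, difference 1.15) and the kinase Plk2 (9.58 and 10.62, difference 1.04). The related kinase Plk3 lay just under the limit at 0.997. Sesn1 and Sesn2, which have related functions, therefore differed in opposite directions. The antiproliferative gene Btg2 was at -0.81 and Ppm1d, the phosphatase that switches off p53 signalling, at -0.66, with the sign of both unchanged under all 15 alternatives.

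Of 11 targets tied to apoptosis, 6 were higher and 5 lower (median 0.040). Pmaip1 (Noxa), which neutralizes the survival protein Mcl1, read 9.15 in EpiSC and 11.29 in ELA-EpiSC and so differed by 2.14, close to the 2.08 of Gadd45a. Perp, a membrane protein of desmosomes, read 13.42 and 14.82, a difference of 1.40. Bbc3 (Puma), a BH3-only protein that promotes apoptosis, differed by 0.42. Apaf1, which builds the apoptosome, was at -0.89 and Pidd1, a death-domain protein, at -0.60. Targets of one pathway to cell death were thus spread on both sides of 0, and the median of this list turned negative under 3 of the 15 alternatives.

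Of 10 targets tied to metabolism and secreted factors, 8 were higher and 2 lower (median 0.21), and 4 were past 1. Of these, 3 are secreted. Thbs1 (thrombospondin) read 10.12 in EpiSC and 13.19 in ELA-EpiSC and so differed by 3.07. Igfbp3, which binds insulin-like growth factors, read 12.998 and 15.35, with probes at 1.48 and 2.35. Gdf15, a stress-induced cytokine, read 7.79 and 10.09, a difference of 2.29. The last, Ephx1, an epoxide hydrolase, had probes at 0.12 and 1.38. Thbs1 and Igfbp3 are also known to respond to TGF-β family signals. The part of these signals was not tested.

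Upstream of p53, 19 kinases and regulators were counted, 11 higher and 8 lower (median 0.044), and 1 was past 1. This was Cdkn2a, whose Arf product keeps Mdm2 away from p53. It read 12.19 in EpiSC and 10.26 in ELA-EpiSC (difference -1.93), and its other probe stood at -1.27. The 2 products of Cdkn2a, Arf and the kinase inhibitor p16, share sequence, and which of them the probes read was not analysed here. Mdm4, the partner of Mdm2 that masks the activation domain of p53, was at -0.33 on its brighter probe and 0.39 on the other. Its direction is therefore not settled, and it turned to 0.20 under spike-in scaling. Cdkn2a and Mdm2, whose products act against each other on p53, thus differed in opposite directions under all 15 alternatives.

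Of 20 genes of the BCL2 family and caspases, 10 were higher and 10 lower (median 0.042). The BH3-only gene Hrk read 8.50 and 10.51, a difference of 2.01, and the survival gene Bcl2 read 8.60 and 9.72, a difference of 1.12. Bmf, another BH3-only gene, read 12.59 and 11.41, a difference of -1.18. Genes that promote and genes that oppose apoptosis were thus found on the same side.

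Of 20 cell-cycle genes known to be lowered through p53 and p21, 15 were higher and 5 lower in ELA-EpiSC (median 0.13), where 50.2% of all genes were higher. Only 1, the mitotic kinase Aurkb, was past 1 at -1.13 (8.80 and 7.66). The rest lay between -0.45 and 0.59. The count of higher genes depended on the processing. It was 11 with the 75th percentile after normexp, 12 with the mean of a gene's probes and 20 with spike-in scaling, and is not read as a property of the list. Scaled to the 75th percentile, the median of this list was 0.0091 after normexp and 0.075 with the processed signal.

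**Figure D5:**
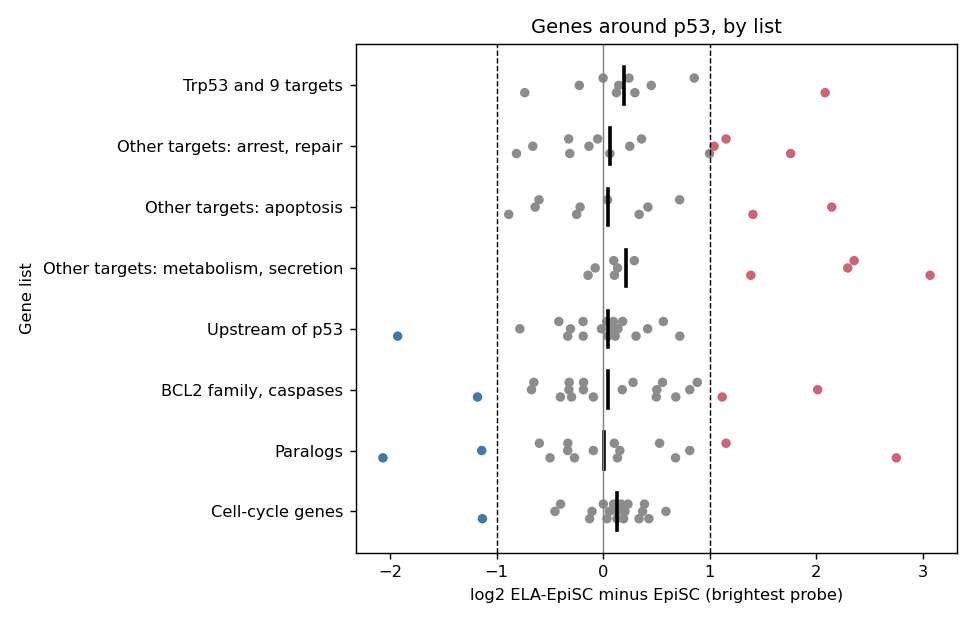
Log2 difference ELA-EpiSC minus EpiSC (x axis, brightest probe) of each counted gene in 8 lists around p53 (y axis); black bars mark list medians, dashed lines 1 and -1, and coloured points lie past them. Points past 1 are most frequent in the list of metabolism and secretion (4 of 10), and medians lie between 0.0049 and 0.21; under scaling to the spike-in RNA every point moves right by 0.54, the shift of all genes.

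The 10 genes belong to small families, and 16 relatives were measured above the minimum signal, 8 higher and 8 lower in ELA-EpiSC (median 0.0049). Members of 1 family often differed in unlike ways. In the Gadd45 family, Gadd45b (10.64 in EpiSC, 13.39 in ELA-EpiSC) differed by 2.75 and Gadd45a by 2.08, whereas Gadd45g was at -0.50 and turned to 0.035 under spike-in scaling. Among the sestrins, Sesn2 was at 1.15, Sesn1 at -0.74 and Sesn3 at -0.60. Ccng2, the relative of Ccng1 that is tied to quiescence, was at -1.14 (8.31 and 7.17) against 0.14 for Ccng1. Zmat4, the relative of Zmat3, was at -2.07 (9.14 and 7.07) against -0.0016 for Zmat3, and Zmat1 was under the minimum signal. The p21 relatives Cdkn1b and Cdkn1c were at 0.16 and 0.53, and the p53 relatives Trp63 and Trp73 at 0.13 and 0.10. Bak1, the partner of Bax, was at 0.81, and Bok at -0.093. Phlda1 and Phlda2 stood at 0.68 and -0.33 beside 0.30 for Phlda3, and Trp53inp2 at -0.27 beside 0.12 for Trp53inp1. The negative values of Bok, Phlda2 and Trp53inp2 turned positive under spike-in scaling.

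Gadd45a, Sesn2, Pmaip1 and Gdf15 are known to be induced also by the integrated stress response, in which the factors Atf4 and Ddit3 (Chop) act. A set of 7 genes of that response, chosen after their values were seen, was therefore read beside them. All 7 were higher in ELA-EpiSC, from 0.57 for Asns and 0.63 for Atf4 to 2.88 for Ddit3 and 3.52 for Nupr1. Since the choice followed the values, this shared direction describes the 7 genes named and no wider response. Atf3, Chac1 and Trib3 stood at 2.75, 2.38 and 1.75. The direction of the 7 held under all 15 alternatives, with Asns as low as 0.26 and Atf4 as low as 0.28. Their part in the differences of the p53 targets was not tested.

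What the group shares in sequence was read from RefSeq promoter windows of assembly GRCm38.p6, each 250 bases before to 50 bases after a transcript start. Windows were given for 8 of the 10 genes (10 windows), and Trp53inp1 and Zmat3 were not analysed here. The windows were searched on both strands for the 10-base p53 half-site in its degenerate form, 2 copies of which make a full p53 response element. At least 1 exact half-site was found for 7 of the 8 genes, Phlda3 being without one, and for 2582 of all 27025 genes with a window. By window this was 7 of 10, against 8.36% of all 32851. Apart from Trp53, the genes were listed because p53 is known to activate them. These shares, and those of pairs below, therefore describe a chosen list and are no test. The windows of these genes were also richer in G and C, with a median of 62.8% against 52.7%, and a match is no evidence of binding. The sites are shown with 15 bases on either side, the half-site in capitals, since 2 sites of Cdkn1a lie next to each other and the others stand alone or beside a weaker copy.
Cdkn1a, chr17:29090913-29090952, plus strand: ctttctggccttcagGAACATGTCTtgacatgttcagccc
Cdkn1a, chr17:29090891-29090930, plus strand: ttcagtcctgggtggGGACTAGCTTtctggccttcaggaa
Ccng1, chr11:40755447-40755486, minus strand: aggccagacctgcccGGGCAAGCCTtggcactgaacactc
Bax, chr7:45467075-45467114, minus strand: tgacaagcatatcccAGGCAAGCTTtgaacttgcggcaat
Mdm2, chr10:117710920-117710959, minus strand: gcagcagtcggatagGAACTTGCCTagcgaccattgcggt
Gadd45a, chr6:67037423-67037462, minus strand: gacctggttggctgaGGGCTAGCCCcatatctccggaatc
Sesn1, chr10:41887251-41887290, plus strand: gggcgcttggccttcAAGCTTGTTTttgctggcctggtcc
Trp53, chr11:69580269-69580308, plus strand: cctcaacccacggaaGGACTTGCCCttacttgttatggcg
The first base of these sites lay 51 and 73 bases before the transcript start of the window in Cdkn1a, 40 in Gadd45a, 75 in Trp53, 173 in Sesn1, 185 in Ccng1, 186 in Mdm2 and 201 in Bax. For Sesn1 this is a transcript start at chr10:41887439, inside the gene, which is annotated to start at 41810574. The other Sesn1 window, at that gene start, had no exact half-site. For Cdkn1a the sites lie in the window at the annotated gene start, 29090979. Its other window, at a later transcript start (chr17:29093769), had no exact half-site.

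A full element was searched as a pair of half-sites with a spacer of up to 13 bases and at most 1 mismatch in all. Such a pair was found in 3 of the 10 windows, those of Ccng1 and Bax and the window at the gene start of Cdkn1a, and in 1.09% of all windows. Only Cdkn1a had a pair without mismatch, found in 0.0731% of all windows. The pairs are printed with half-sites in capitals and spacers in lower case.
Cdkn1a, spacer of 12 bases, 0 mismatches: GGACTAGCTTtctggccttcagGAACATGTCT
Cdkn1a, spacer of 0 bases, 1 mismatch: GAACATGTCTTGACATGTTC
Ccng1, spacer of 0 bases, 1 mismatch: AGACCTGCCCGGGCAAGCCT
Bax, spacer of 1 base, 1 mismatch: AAGCATATCCcAGGCAAGCTT
On their brightest probes, the 3 genes with a pair in this window differed by 0.24, 0.14 and -0.23 between the cultures. The other probes of Cdkn1a, probes 2 and 3, were at -0.24 and -0.014, and the mean of its probes was at -0.0025. Gadd45a, Mdm2 and Sesn1, which have the widest differences of the group, had a single half-site and no pair here. A pair further from the start, or inside the gene, lies outside these windows and was not searched.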

How the data were processed

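Total RNA of EpiSC and ELA-EpiSC was measured on 2 Agilent SurePrint G3 1-colour arrays, 1 per group. The authors deposited 1 scanner file per array, in which intensity is linear and not normalized and stands beside a local background and quality marks, made with Feature Extraction 10.7.3.1 per the file headers. The authors also deposited log2 values per probe, background-corrected and quantile normalized with limma, which served as an alternative; the offset of that correction is not given in the sources used here. Per the labels, 50 ng of RNA was labelled with Cy3, less than the amount given in the methods of the study. The labels also name another version of Feature Extraction than the file headers do.

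Local background was removed from the mean spot signal by normexp (offset 50, all spots in the fit) with limma 3.58.1 in R 4.3.3. Control spots and marked spots (158 and 117) were left out, log2 values were quantile normalized across both arrays, and replicate spots were averaged per probe. The offset shrinks differences of dim probes, and quantile normalization removes a shift shared by all genes. A probe counted as above background where at least 0.5 of its spots carried that mark. A gene took its brightest probe and was counted where its mean log2 was at least 7.5. The spot SD beside a gene is that of probes printed 10 times within 1 log2 unit of its level. No test was run, since each group had 1 array; calculations were tested on simulated data. Named were the 10 genes with all probes, all listed relatives, Mdm4, Cdkn2a, each gene past 1 of the lists around p53 and, of the marker lists, the genes with the highest and the lowest level. Plk3, Btg2, Ppm1d, Bbc3, Apaf1, Pidd1, Col1a1, Pdgfra, Thy1 and the integrated stress response genes were chosen after their values were seen. The members and lists were chosen with earlier results of these data known. One listed gene is not reported here and was left out of the counts. Of the members' probes, 12 carry a RefSeq accession, and all 12 matched the member's own symbol. No other of 55668 probes shared a run of 20 bases with them.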

Additional observations from a re-analysis of the deposited data

How the results depend on the processing

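The differences of the 10 genes, their counts and median, and the list medians were recomputed under 15 alternatives: normexp offsets of 0 and 16, no background correction, the processed signal or normexp values scaled to the 75th percentile, scaling by the median or to spike-in RNA, cyclic loess, median pixel signal, the mean of a gene's probes, 3 filters, marked spots kept and the deposited log2 values. List counts and marker medians were added after seeing the data, and marker sums, spot values and promoter matches were not recomputed. The median of the 10 genes was 0.088 with the processed signal, 0.35 with median scaling and 0.73 with spike-in scaling. The count higher by at least 1 was 2 with spike-in scaling. With a size of 0.5 the counts were 2 higher and 1 lower. The 34 other targets had a median of 0.36 with median scaling, 0.65 with spike-in scaling and 0.26 without a filter; 5 of them were lower with spike-in scaling, 8 to 11 were at least 1 higher and 0 at least 1 lower under the 15 alternatives. With spike-in scaling the list medians were 0.60 (arrest and repair), 0.58 (apoptosis), 0.75 (metabolism and secretion), 0.58 (upstream regulators), 0.58 (BCL2 family and caspases), 0.54 (relatives) and 0.66 (cell-cycle genes). With median scaling they were 0.31 (arrest and repair), 0.45 (metabolism and secretion), 0.23 (upstream regulators), 0.19 (relatives) and 0.24 (cell-cycle genes). With the processed signal they were -0.24 (apoptosis), -0.13 (BCL2 family and caspases) and 0.13 (relatives), and with the 75th percentile after normexp -0.21, -0.12 and, for cell-cycle genes, 0.0091. The median of relatives was 0.12 with an offset of 0, 0.11 with 16, 0.11 without background correction, 0.10 without a filter and 0.14 with a minimum mean log2 of 9. That of apoptosis was 0.28 without a filter and -0.089 with a minimum of 9. That of the BCL2 family was 0.18 with an offset of 0 and -0.093 with a minimum of 9. The medians of arrest and repair, upstream regulators and relatives were below 0 under 1 alternative each (-0.011 with the mean of probes, -0.0031 with the processed signal and -0.035 with the 75th percentile after normexp). With spike-in scaling Bmf, Ccng2 and Aurkb stood at -0.65, -0.61 and -0.60, no longer past 1. Scaling moves a whole list by construction; for the other shifts the cause was not tested. No paired analysis was possible because there was a single array for each group, and for the same reason no replicate could be left out. Signal over background limited probe 3 of Cdkn1a, which read 69.2 and 78.3 units on a background of 26 and 28.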
